A study of Mus musculus with 12 samples.

Results

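The spindle assembly checkpoint keeps chromosomes from separating before every kinetochore, the protein platform built on a centromere, is attached to spindle microtubules. The 10 genes described here were chosen by symbol: Mad1l1, Mad2l1, Bub1, Bub1b, Bub3, Ttk, Knl1, Zwint, Ndc80 and Nuf2. They are 10 of the 24562 genes of the count table, and all 10 were among the 13943 genes with enough counts to be tested. RNA-Seq counts were obtained for 12 oocyte pools of CD-1 mice. The 4 cohorts had 3 pools each: postnatal day (PND) 13, PND 40, and PND 16 mice divided by body weight into a small and a large group. Each pool held 18 to 45 germinal vesicle-intact oocytes, which are arrested in prophase of meiosis I. They had been taken from antral follicles of ovaries that received no gonadotropin, stripped of cumulus cells by pipetting and kept in milrinone, an inhibitor of phosphodiesterase 3 that holds the arrest. No allele or other treatment was given for any cohort. The study treats PND 16 large and PND 40 oocytes as competent to complete meiosis and those of PND 13 and PND 16 small mice as non-competent, and it describes the pools as independent, from 3 mice per cohort. The labels do not tie a pool to a mouse, so the p-values measure the spread between pools.

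When a kinetochore is unattached, the kinase encoded by Ttk (MPS1) phosphorylates the scaffold KNL1, which then recruits BUB1, BUB3 and BUBR1, the product of Bub1b. The MAD1 protein anchors MAD2 there. MAD2, BUBR1 and BUB3 bind CDC20 as the mitotic checkpoint complex, which blocks the anaphase-promoting complex and so preserves cyclin B1 and securin. A fully grown oocyte stores messenger RNA made during its growth, and meiosis is completed from that store. Messenger RNA counts of arrested oocytes therefore describe what was held before the checkpoint was used, not protein or checkpoint activity.

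Bub1b and Ttk stood out among the 10 genes. Bub1b transcripts were 1.85-fold more abundant at PND 40 than at PND 13 and Ttk transcripts 1.52-fold. Bub3 and Nuf2 were also higher in competent oocytes, by 1.38-fold and 1.13-fold. Granulosa cell markers were high in 3 of the non-competent pools, PND 13 pools 1 and 3 and PND 16 small pool 2. Without those pools Nuf2 did not pass the test in competent vs. non-competent oocytes. The log2 difference of Bub3 from PND 13 was then 0.05 to 0.13. That difference rested on PND 13 pool 2 alone, where Bub3 was highest of that cohort. Mad1l1, Mad2l1 and Zwint passed the test in at most 1 of the 7 comparisons. The mean of the highest cohort was less than 1.5 times that of the lowest for 8 of the 10 genes. It was so for 47.3% of all genes tested, which were not matched to the 10 in level.

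Stretches of 5 promoters are shown because they hold short motifs found in many cell cycle promoters: those of Bub1b, Ttk and Bub3, which were higher in competent oocytes, and of Bub1 and Zwint, which did not pass that test. Nuf2 was higher as well and its window held neither motif. The stretches were taken from RefSeq promoter windows on GRCm38.p6 (250 bases before to 50 bases after each gene's start). Capitals mark a CCAAT box (CCAAT, or ATTGG on the opposite strand), bound by NF-Y, or a cell cycle genes homology region, CHR (TTTGAA or TTTAAA on either strand, thus also TTCAAA), the site of the DREAM and MuvB complexes. Positions are counted from the RefSeq start, with no position 0. For Bub3 the GENCODE M21 annotation starts further upstream, at chr7:131560222, so the Bub3 stretch shown lies inside the gene as annotated there.
Bub1b, positions -120 to -61, chr2:118598091-118598150, plus strand: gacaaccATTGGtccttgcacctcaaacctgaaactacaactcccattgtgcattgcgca
Bub1b, positions 27 to 50, chr2:118598237-118598260, plus strand: caagagacgttaaaTTTGAAactt
Ttk, positions -80 to 20, chr9:83834609-83834708, plus strand: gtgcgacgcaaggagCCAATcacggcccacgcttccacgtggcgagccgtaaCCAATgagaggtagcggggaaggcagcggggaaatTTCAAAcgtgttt
Bub3, positions -80 to -20, chr7:131560290-131560350, plus strand: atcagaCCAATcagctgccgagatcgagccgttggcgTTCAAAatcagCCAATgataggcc
Bub1, positions -80 to -21, chr2:127831880-127831939, minus strand: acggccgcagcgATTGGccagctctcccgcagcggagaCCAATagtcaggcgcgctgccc
Zwint, positions -50 to 20, chr10:72654796-72654865, plus strand: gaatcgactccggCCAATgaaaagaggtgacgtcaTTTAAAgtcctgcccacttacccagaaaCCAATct

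A CHR match was found in the windows of 6 of the 10 genes (Bub1b, Bub3, Ttk, Zwint, Knl1 and Ndc80), against 27.6% of all 32851 windows of the same length. All 6 had a match within 50 bases of the RefSeq start, where 8.28% of all windows had one. A CCAAT box was found in 5 of the 10 (Bub1, Bub1b, Bub3, Ttk and Zwint), against 37.4% of all windows, and within 50 bases of the start in 4 of the 10, against 13.6%. The windows of Mad1l1, Mad2l1 and Nuf2 held neither set of letters. Genes with both motifs included Bub1b and Ttk, which differed most between cohorts, and Zwint, which did not pass the test in any comparison. The 32851 windows outnumber the genes of the count table and were not matched to the 10 genes in level or function. The matches are letters in a window and not measured binding sites.

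**Figure D1:**
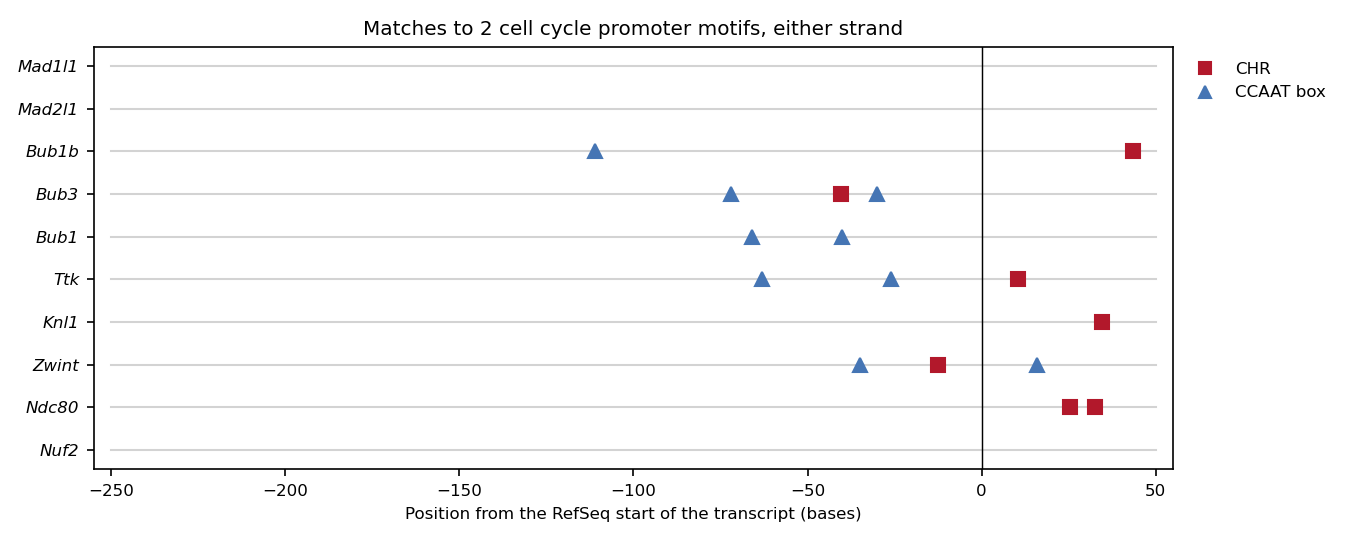
Matches to the CHR (squares) and the CCAAT box (triangles) on either strand in the promoter window of each of the 10 genes, drawn by distance in bases from the RefSeq start (vertical line). CHR matches lay near or after the start, and 3 genes had neither motif.

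Before the genes are described, features of the pools matter. The total count was 17671193 to 27418358 per pool, and each of the 10 genes had at least 925 counts in every pool. Levels are CPM, a gene's reads per 1000000 reads of the pool after TMM scaling. All 15 oocyte markers, among them Zp3, Gdf9 and Bmp15, were detected in every pool with a summed level of 16787 to 21355 CPM. The 16 granulosa and cumulus cell markers summed to 591, 223 and 653 CPM in the 3 PND 13 pools, in PND 16 small to 274, 712 and 379 CPM, and lay between 323 and 340 CPM in PND 16 large and between 312 and 336 CPM in PND 40, and all 16 were detected in each. Of these granulosa markers, Esr2 alone had a higher mean at PND 40 than at PND 13, 144 against 85.5 CPM. Esr2 and Nr5a2 (91.1 CPM) were the largest parts of the sum at PND 40. Inha fell from 80.9 to 12.1 CPM and Amh from 21.6 to 4.79 CPM. The sum is therefore not read as an amount of granulosa cells. Theca and stroma markers summed to 8.04 to 49.6 CPM over 10 genes. PND 16 small pool 3 stood apart by transcript length: over genes averaging 10 CPM or more, the median log2 deviation from the 12-pool mean was 0.23 for the 934 genes with a coding transcript of 7000 bases or more and -0.19 for the 1346 genes under 2000 bases. In the other 11 pools the medians of these classes lay between -0.09 and 0.08 and between -0.11 and 0.13. The main results that change without these pools are given below with and without them, and others by how many alternatives lost them. The part of either feature in a result was not tested. Each cohort's level is a share of all counts, so RNA content per oocyte cannot be told from the level of a single transcript.

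Bub1b encodes BUBR1, the pseudokinase that joins MAD2 and BUB3 in the inhibitor of CDC20 and that also stabilizes attachments to microtubules. It lies at chr2:118598211-118641591 (GENCODE M21, GRCm38). Bub1b measured 1237, 1390 and 1091 CPM in the 3 PND 13 pools and 1383, 1367 and 1331 CPM in the PND 16 small pools. It measured 1684, 1619 and 1602 CPM in the PND 16 large pools and 2175, 2328 and 2393 CPM in the PND 40 pools. All 6 competent pools lay above all 6 non-competent pools, and all PND 40 pools lay above the PND 16 large pools, whereas PND 13 and PND 16 small overlapped.

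The change in Bub1b from PND 13 to PND 40 was a log2 fold change of 0.89 ± 0.08 (SE, n = 3 and 3 pools, adjusted p = 2.6e-05). It rose by 0.76 ± 0.08 from PND 16 small to PND 40 (adjusted p = 5.02e-05) and by 0.49 ± 0.08 from PND 16 large to PND 40 (adjusted p = 0.00412). The step from PND 16 small to PND 16 large was smaller, 0.27 ± 0.08 (adjusted p = 0.0464), and it missed the threshold without any single pool of either cohort (adjusted p up to 0.154 over the alternatives). Between PND 13 and PND 16 small the 95% interval of the fold was 0.984 to 1.22 (adjusted p = 0.393). Against PND 13, PND 16 large was higher by 0.40 ± 0.08 (adjusted p = 0.00355). Without the 3 pools highest in granulosa markers, PND 13 pools 1 and 3 and PND 16 small pool 2, the value was 0.24. The PND 40 rise against PND 13 was 0.73 without those 3 pools. PND 13 pool 2 alone then stood for its cohort, and it was the highest of that cohort at 1390 CPM.

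Ttk encodes the kinase that starts checkpoint signalling at kinetochores, at chr9:83834689-83872389. Ttk measured 356, 355 and 307 CPM at PND 13 and 407, 451 and 462 CPM in PND 16 small. It measured 507, 489 and 499 CPM in PND 16 large and 530, 514 and 507 CPM at PND 40. The 3 PND 13 pools were the lowest of the 12, the PND 16 small pools came next, and the 2 competent cohorts lay side by side at the top.

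Ttk was higher than at PND 13 by 0.55 ± 0.07 in PND 16 large (log2, adjusted p = 0.000365) and by 0.61 ± 0.07 at PND 40 (adjusted p = 6.94e-05), and both held in each of 16 alternative analyses by adjusted p. The 1.5-fold criterion was met at PND 40 only narrowly: without PND 13 pool 3 the value was 0.54. The rise from PND 13 to PND 16 small, 0.37 ± 0.07 (adjusted p = 0.0339), missed the threshold in 8 of 16 alternatives, with adjusted p up to 0.377 and 0.113 without PND 16 small pool 3. From PND 16 small to PND 40 the change was 0.23 ± 0.07 (adjusted p = 0.0249), and 4 of 16 alternatives lost it (adjusted p up to 0.0843). PND 40 and PND 16 large differed by a fold of 1.04 (95% interval 0.942 to 1.14, adjusted p = 0.726).

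Bub3 encodes the WD40 protein that carries BUB1 and BUBR1 to phosphorylated KNL1. Bub3 (chr7:131560222-131571895) measured 70.9, 107 and 72.3 CPM at PND 13 and 87.4, 81.4 and 75.3 CPM in PND 16 small. It measured 121, 113 and 117 CPM in PND 16 large and 110, 110 and 114 CPM at PND 40. The competent pools lay above the non-competent pools, with 1 PND 13 pool close beneath them. That pool, PND 13 pool 2, also had the lowest granulosa marker sum of the 12. Bub3 was higher in PND 16 large than in PND 16 small by 0.53 ± 0.13 (adjusted p = 0.0211), and without the 3 pools highest in granulosa markers by 0.53 (adjusted p = 0.0041). It missed the threshold in 4 of 16 alternatives, each without a single pool (adjusted p up to 0.0871), PND 16 small pool 3 among them (0.0702). Its difference from PND 13 rested on PND 13 pools 1 and 3. The PND 40 value of 0.41 ± 0.13 (adjusted p = 0.0273) was 0.05 without the 3 pools highest in granulosa markers. The PND 16 large value of 0.49 ± 0.13 (adjusted p = 0.0152) was then 0.13. Both smaller values are set against PND 13 pool 2 alone, the highest of that cohort at 107 CPM.

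Bub1 encodes the kinase that marks centromeric histone H2A and supports recruitment of the other checkpoint proteins. Bub1 (chr2:127801122-127831865) measured 234, 220 and 211 CPM at PND 13 and 234, 262 and 279 CPM in PND 16 small. It measured 252, 245 and 257 CPM in PND 16 large and 199, 231 and 212 CPM at PND 40. PND 40 pools lay beneath those of both PND 16 cohorts and among those of PND 13. Bub1 was lower at PND 40 than in PND 16 small, with a log2 change of -0.27 ± 0.08 (adjusted p = 0.0182). This was -0.22 without PND 16 small pool 3 (adjusted p = 0.0525). In competent against non-competent oocytes the fold was 0.97 with a 95% interval of 0.867 to 1.08.

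**Figure D2:**
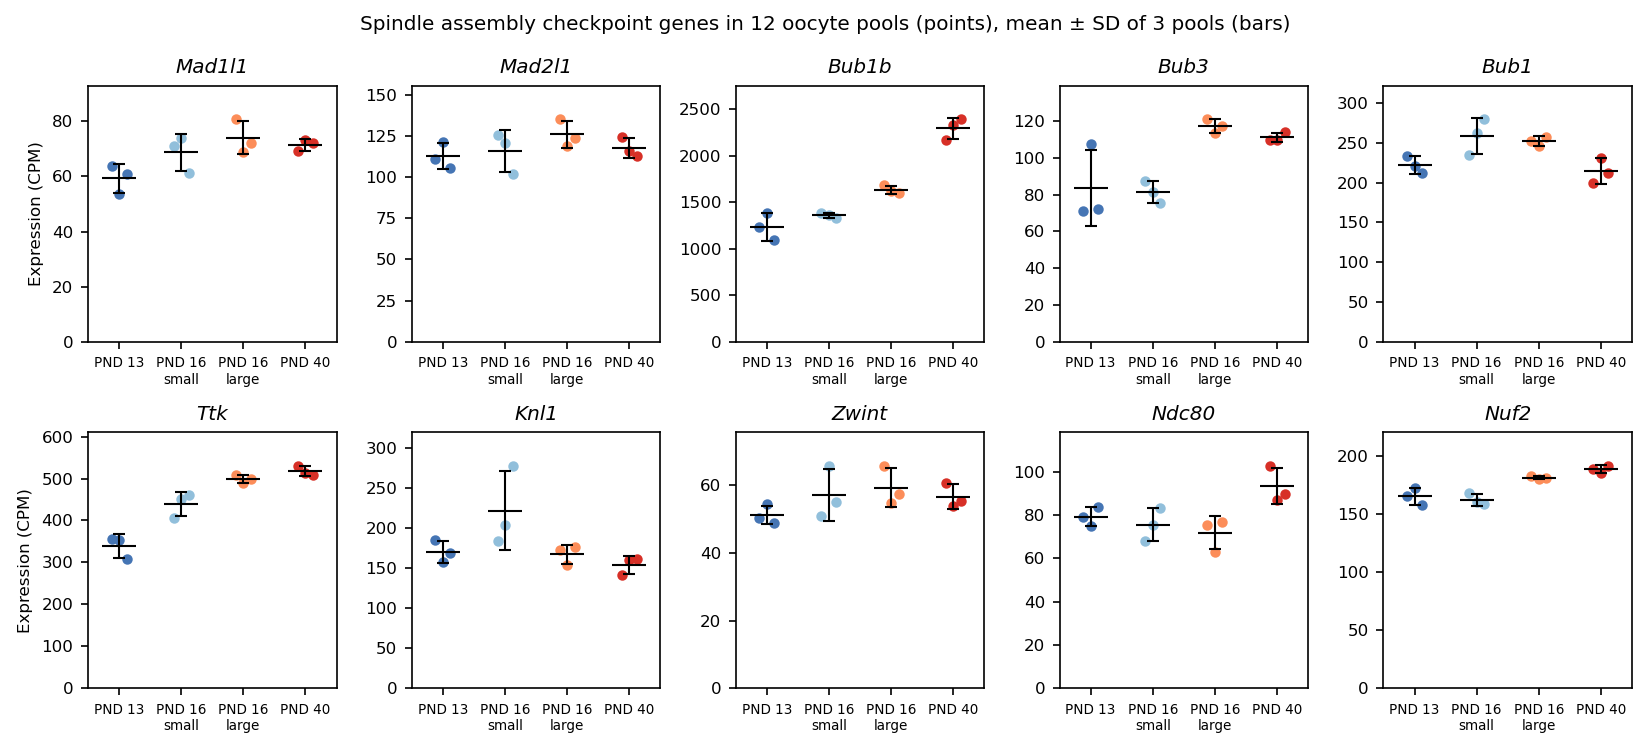
Expression in CPM (linear axes from 0) of the 10 genes in the 3 pools of each cohort (points), with mean ± SD of 3 pools (bars). Bub1b rose to a mean of 2299 CPM at PND 40 from 1239 CPM at PND 13, and most other genes kept within a narrow range.

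Mad1l1 encodes MAD1, the anchor of MAD2 at unattached kinetochores (chr5:140008689-140321552). Its mean was 59.4 ± 5.3 CPM (SD, n = 3) at PND 13, 68.7 ± 6.7 in PND 16 small, 74.0 ± 6.0 in PND 16 large and 71.4 ± 2.1 at PND 40. Mad1l1 passed the test only in PND 16 large vs. PND 13 (0.32 ± 0.10, adjusted p = 0.0319), and 7 of 16 alternatives lost it. An exon of Gm16121 on the opposite strand overlaps Mad1l1 in GENCODE M21, and whether counting used strand is not given in the sources used here. Mad2l1 encodes MAD2, the protein whose closed form seizes CDC20 (chr6:66535390-66547220). The cohort means of Mad2l1 were 113 ± 7.8, 116 ± 13, 126 ± 8.2 and 118 ± 5.9 CPM in the cohort order used for Mad1l1. The cohorts overlapped, and PND 40 vs. PND 13 gave a fold of 1.04 for Mad2l1 with a 95% interval of 0.924 to 1.18 (adjusted p = 0.632).

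Knl1 encodes the kinetochore scaffold whose repeats are phosphorylated by the TTK kinase (chr2:119047119-119105501). Knl1 measured 185, 157 and 168 CPM at PND 13 and 184, 203 and 278 CPM in PND 16 small. It measured 172, 154 and 176 CPM in PND 16 large and 141, 160 and 162 CPM at PND 40. PND 16 small pool 3 was far above the other 11 pools. The longest annotated coding transcripts of Knl1 and Mad2l1 have 7800 and 7557 bases, and which transcript the oocytes held was not measured. Mad2l1 had its lowest value of the 12 pools, 102 CPM, in PND 16 small pool 3. Of other genes with long annotated transcripts, Cenpe (7910 bases) measured 512 CPM there, Cenpf (11130 bases) 1220 CPM and Mki67 (10061 bases) 716 CPM. Each of these was the highest of the 12 pools for its gene, and the genes were picked with their values known. The part of transcript length was not tested. Knl1 fell by 0.52 ± 0.13 on the log2 scale from PND 16 small to PND 40 (adjusted p = 0.00851), and without PND 16 small pool 3 the change was -0.34 (adjusted p = 0.0198). It was -0.14 ± 0.13 between PND 13 and PND 40 (adjusted p = 0.422).

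Zwint encodes the partner of KNL1 that brings the dynein adaptor complex of ROD, ZW10 and Zwilch to kinetochores (chr10:72654845-72674964). Its cohort means were 51.1 ± 2.8, 57.1 ± 7.6, 59.2 ± 5.7 and 56.5 ± 3.7 CPM in the cohort order used for Mad1l1. Zwint passed the test in none of the 7 comparisons by edgeR, and its smallest unadjusted p was 0.0748, in PND 16 large vs. PND 13. DESeq2 and limma gave no pass either. For competent against non-competent oocytes its fold was 1.07 with a 95% interval of 0.955 to 1.20.

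Ndc80 and Nuf2 encode the paired subunits that form the microtubule-binding end of the NDC80 complex. Ndc80 (chr17:71496100-71526857) measured 79.0, 75.1 and 83.6 CPM at PND 13 and 68.0, 75.2 and 83.2 CPM in PND 16 small. It measured 75.5, 63.0 and 76.7 CPM in PND 16 large and 103, 87.0 and 89.9 CPM at PND 40. The PND 40 pools were the highest of the 12. Ndc80 was higher at PND 40 than in PND 16 large by 0.38 ± 0.10 (adjusted p = 0.0461) and than in PND 16 small by 0.30 ± 0.10 (adjusted p = 0.0407), but 12 and 8 of 16 alternatives lost these calls.

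Nuf2 (chr1:169497934-169531464) measured 165, 172 and 157 CPM at PND 13 and 168, 160 and 158 CPM in PND 16 small. It measured 182, 180 and 181 CPM in PND 16 large and 189, 185 and 191 CPM at PND 40. The competent pools lay above the non-competent ones by a small margin. Nuf2 was higher at PND 40 than in PND 16 small by 0.22 ± 0.06 (log2, adjusted p = 0.0148). Its value against PND 13, 0.19 ± 0.06 (adjusted p = 0.026), was lost in 9 of 16 alternatives. The ratio of Ndc80 to Nuf2 counts in a pool averaged 0.482, 0.467, 0.396 and 0.495 in the 4 cohorts from PND 13 to PND 40.

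Across the 10 genes, the calls are read against all genes tested. With both criteria of the study, an adjusted p of at most 0.05 and a change of at least 1.5-fold, none of the 10 was called in PND 16 small vs. PND 13, where 0.373% of all genes were, in PND 16 large vs. PND 13 (13.3%), in PND 16 large vs. PND 16 small (6.19%) or in PND 40 vs. PND 16 large (3.66%). In PND 40 vs. PND 13 Bub1b and Ttk, 2 of 10, were called against 18.9% of all genes, and in PND 40 vs. PND 16 small Bub1b was called against 17.2%. In competent vs. non-competent oocytes Bub1b alone was called, against 15.0% of all genes. Its 1.51-fold change lay at the limit, and 8 of 23 alternatives put it under 1.5-fold while its adjusted p stayed at 0.0214 or less. None of the 10 genes reached 1.5-fold in the first 4 of these comparisons, and DESeq2 and limma called none there either. The shares of all genes, here and below, count changes in either direction, while every call among the 10 was higher. Against those shares the counts are near the background. Shares of genes called higher alone are not given here.

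By adjusted p alone the count was 1 of 10 (Ttk) in PND 16 small vs. PND 13, against 0.925% of all genes. It was 4 of 10 in PND 16 large vs. PND 13 (Bub1b, Bub3, Mad1l1 and Ttk) against 25.6%, and 4 of 10 in PND 40 vs. PND 13 (Bub1b, Bub3, Nuf2 and Ttk) against 33.1%. It was 2 of 10 in PND 16 large vs. PND 16 small (Bub1b and Bub3) against 12.3%, and 2 of 10 in PND 40 vs. PND 16 large (Bub1b and Ndc80) against 6.83%. PND 40 vs. PND 16 small had the most, 5 higher (Bub1b, Bub3, Ndc80, Nuf2 and Ttk) and 2 lower (Bub1 and Knl1), against 30.2%. Comparisons that share a cohort are not independent of each other.

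Competent and non-competent oocytes were compared over 6 and 6 pools, with no term for cohort. PND 40 was only on the competent side and PND 13 only on the other, so competence and age cannot be told apart in this comparison. PND 16 small and PND 16 large share an age but were divided by body weight. For Bub1b the log2 step from PND 16 large to PND 40 (0.49) was larger than that from PND 16 small to PND 16 large (0.27). For Bub3 (-0.08 against 0.53), Ttk (0.05 against 0.18) and Nuf2 (0.06 against 0.16) it was smaller. Bub1b, Bub3, Ttk and Nuf2 passed the test, all higher in competent oocytes. They were 4 of 10, against 30.7% of all genes in either direction. The log2 changes were 0.60 ± 0.11 for Bub1b (adjusted p = 0.00121), 0.47 ± 0.09 for Bub3 (adjusted p = 0.00172), 0.38 ± 0.09 for Ttk (adjusted p = 0.00471) and 0.18 ± 0.05 for Nuf2 (adjusted p = 0.0129). The pools of the 2 groups did not overlap for these 4 genes, against 14.7% of all genes in either direction. The remaining 6 gave values from -0.28 for Knl1 (adjusted p = 0.0747) to 0.18 for Mad1l1 (adjusted p = 0.0992). The median of the 10 log2 changes was 0.14, and that of all genes tested was -0.0046. Without the 3 pools highest in granulosa markers, Bub1b (0.53), Bub3 (0.34) and Ttk (0.32) still passed, and Nuf2 did not (adjusted p = 0.105). The PND 13 pool left is then assumed to vary like the others.

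**Figure D3:**
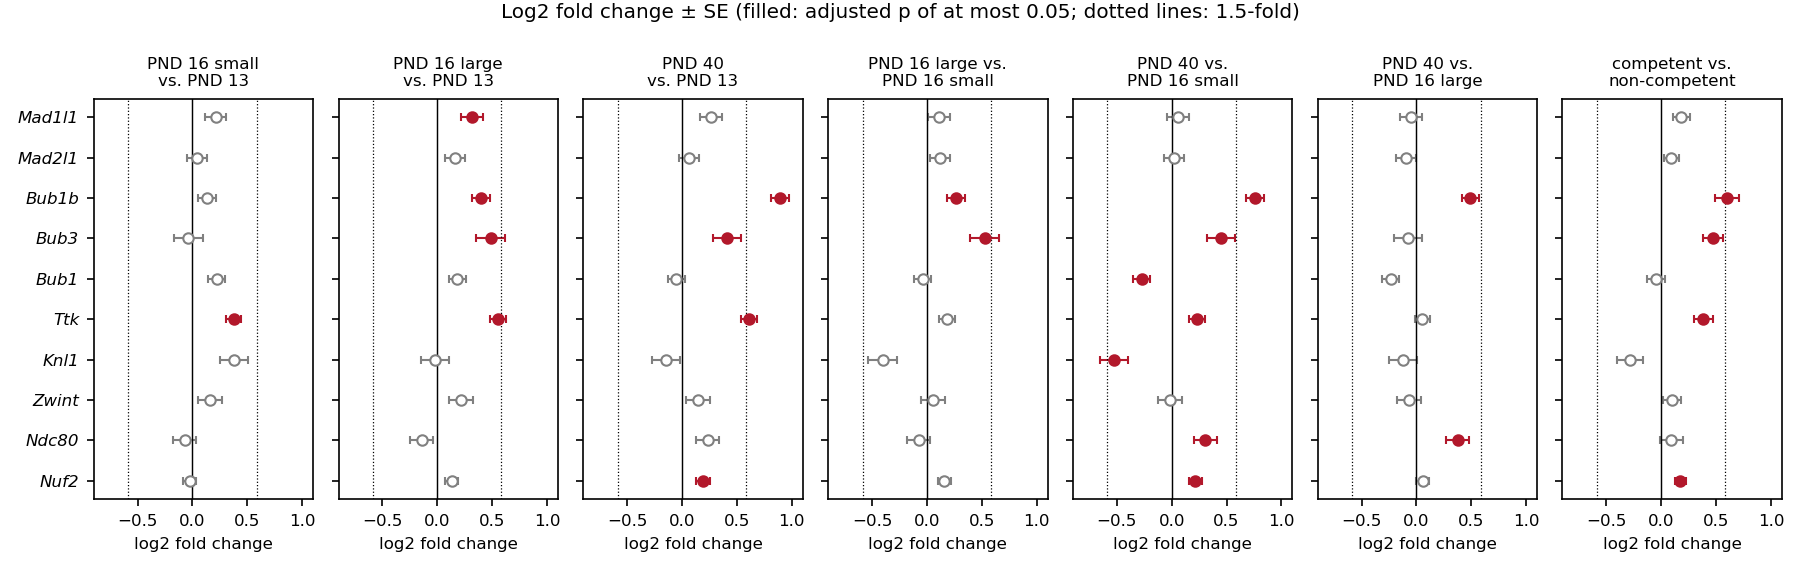
Log2 fold change ± SE (horizontal axis) of the 10 genes in each of the 7 comparisons, filled where the adjusted p was at most 0.05, with dotted lines at a 1.5-fold change. Bub1b lay past the line in 3 comparisons and Ttk in 1, and values below 0 that passed occurred only for Bub1 and Knl1 in PND 40 vs. PND 16 small.

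The levels of pairs of genes within a pool were also set side by side as ratios of counts, which do not depend on scaling between pools. The pairs were chosen with the gene values known, so the ratios are a description and were not tested. The ratio of Bub1b to Bub1 was 5.59 ± 0.63 (SD, n = 3) at PND 13, 5.30 ± 0.57 in PND 16 small, 6.5 ± 0.24 in PND 16 large and 10.8 ± 0.64 at PND 40. PND 40 pools stood above all others, from 10.1 to 11.3, whereas PND 16 large pools (6.22 to 6.67) overlapped those of PND 13 (5.16 to 6.31). The ratio of Ttk to Bub1 was 1.53 ± 0.08, 1.70 ± 0.04, 1.98 ± 0.04 and 2.43 ± 0.22 in the same order, with no overlap between the cohorts. The ratio of Bub1b to Bub3 was 15.2 ± 2.3 at PND 13, 16.8 ± 0.92 in PND 16 small, 14.0 ± 0.32 in PND 16 large and 20.7 ± 0.75 at PND 40. PND 40 was highest and PND 16 large overlapped PND 13. The ratio of Knl1 to Zwint was 5.06 in PND 16 small pool 3, 3.62 and 3.11 in the other two of that cohort, and 2.32 to 3.68 in the remaining 9 pools.

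**Figure D4:**
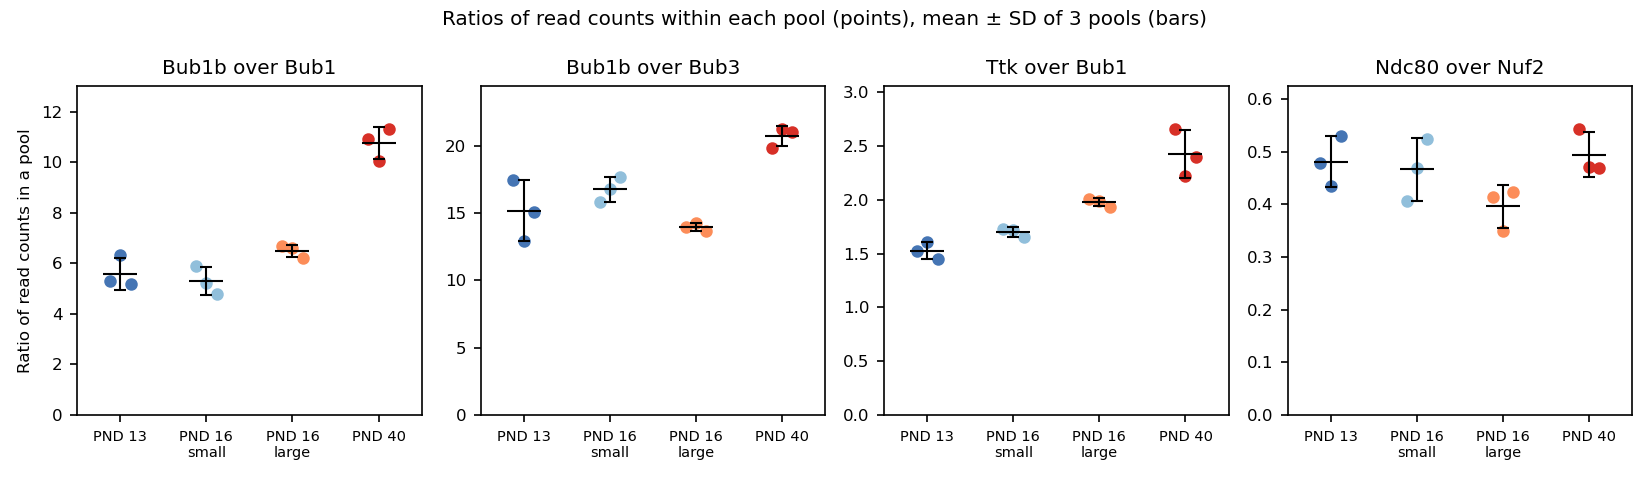
Ratios of read counts of gene pairs within each pool (points; vertical axes from 0), with mean ± SD of 3 pools per cohort (bars). The ratio of Bub1b to Bub1 averaged 10.8 at PND 40 and 5.30 to 6.5 in the other cohorts.

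In absolute terms Bub1b dominated the group. It took 46.1% to 52.1% of the counts of the 10 genes in the PND 13 and PND 16 pools and 58.8% to 61.2% in the PND 40 pools. The 10 genes together took 0.246% to 0.388% of all counts. Bub1b ranked 31 of 13943 genes by mean CPM, the top 0.222%. Per kilobase of exon, Bub1b had 382 CPM, Ttk 91.2 CPM and Bub1 54.3 CPM, and the other 7 had 12.3 to 27.4 CPM. Bub1b and Ttk were also first and second by the length of the longest coding transcript, but from the third place on the order depended on the length used, with Ndc80 in place 10 by exon length and place 5 by transcript length. Per-kilobase levels among the lower 7 genes are therefore not ranked here.

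By root mean square difference of centred log2 CPM over the 12 pools, the gene most like Bub1b among 11947 genes of at least 1 CPM was P4ha1 (difference 0.094), which encodes a subunit of collagen prolyl 4-hydroxylase. P4ha1 averaged 69.0, 78.0, 97.0 and 128 CPM from PND 13 to PND 40. The genes most like Ttk were Scaf8 (0.048) and the zinc transporter gene Slc39a10 (0.050), with Slc39a10 at 550, 690, 773 and 780 CPM. Of the other checkpoint genes, Ttk was nearest to Bub1b, at place 485, and Mad1l1 was nearest to Ttk, at place 1082.

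Genes that work with the checkpoint were described from 4 lists. Among 20 regulators at kinetochores, 7 were higher and 1 was lower in competent oocytes by adjusted p, and none reached 1.5-fold. The 7 were Cdc20, Zw10, Aurkc, Incenp, Cdca8, Birc5 and Plk1, with log2 changes of 0.22 to 0.52. Cdc20, the activator that the checkpoint holds, averaged 73.1 and 95 CPM at PND 13 and PND 40, and rose by 0.29 ± 0.07 in competent oocytes (log2, adjusted p = 0.00404). Birc5 and Cdca8, subunits of the chromosomal passenger complex that corrects wrong attachments, rose by 0.47 ± 0.05 (adjusted p = 2.68e-05) and 0.33 ± 0.07 (adjusted p = 0.00284), and Aurkc, its meiotic kinase, by 0.52 ± 0.16 (adjusted p = 0.0235). Trip13, the ATPase that takes MAD2 out of its closed form, was the gene that fell (-0.49 ± 0.16, adjusted p = 0.0347), with means of 12.7 and 8.46 CPM at PND 13 and PND 40. The median log2 change of the list was 0.20. Without the 3 pools highest in granulosa markers 4 of the 8 still passed, Aurkc, Birc5, Cdca8 and Plk1, and without PND 16 small pool 3 all but Plk1 did.

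Among 31 genes of kinetochore and centromere structure, 7 were higher by adjusted p (Ska1, Cenpa, Itgb3bp, Cenps, Cenpt, Cenpx and Mis18a), and the median change was 0.09. Only Itgb3bp, which encodes the centromere protein CENP-R, met both criteria in competent oocytes (0.95 ± 0.34, adjusted p = 0.0485), at a low level of 1.32 to 3.10 CPM as cohort means. Its adjusted p was 0.216 without the 3 pools highest in granulosa markers and 0.0836 without PND 16 small pool 3. Mis18a, needed to load the centromeric histone, rose by 0.51 ± 0.09 (adjusted p = 0.000669), and Cenpa, that histone, by 0.42 ± 0.11 (adjusted p = 0.00937). These 2 of the 7 still passed without the 3 pools, and 4 of the 7 without PND 16 small pool 3. Of the 4 targets that the checkpoint protects or that act after it, Ccnb1 (cyclin B1) rose by 0.35 ± 0.08 (adjusted p = 0.00307) and Espl1 (separase) by 0.31 ± 0.08 (adjusted p = 0.0105), and Ccnb2 fell by 0.18 ± 0.06 on the log2 scale (adjusted p = 0.0339). Without the 3 pools Ccnb1 still passed (adjusted p = 0.0365), and Espl1 (0.0791) and Ccnb2 (0.0902) did not. Pttg1 (securin) gave -0.0047 (adjusted p = 0.98).

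Of 15 S phase and proliferation genes, 8 were higher in competent oocytes by adjusted p (Top2a, Pcna, Mcm2, Mcm3, Mcm4, Mcm6, Mcm7 and Rrm2), with a median of 0.22 over the list. Mcm7 and Mcm4, subunits of the replicative helicase, rose by 0.48 ± 0.14 (adjusted p = 0.015) and 0.42 ± 0.09 (adjusted p = 0.0027), and Mki67 gave -0.15 (adjusted p = 0.492). Without the 3 pools 3 of the 8 still passed, Top2a, Mcm3 and Mcm4, and Mcm7 did not (adjusted p = 0.157). The shares that passed in the 4 lists were 8 of 20, 7 of 31, 3 of 4 and 8 of 15, beside 30.7% of all genes, and without the 3 pools the share of all genes was 18.2%. The changes that passed kept their sign in both fits. Apart from Itgb3bp, the genes named in these lists were picked after their values were seen.

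**Figure D5:**
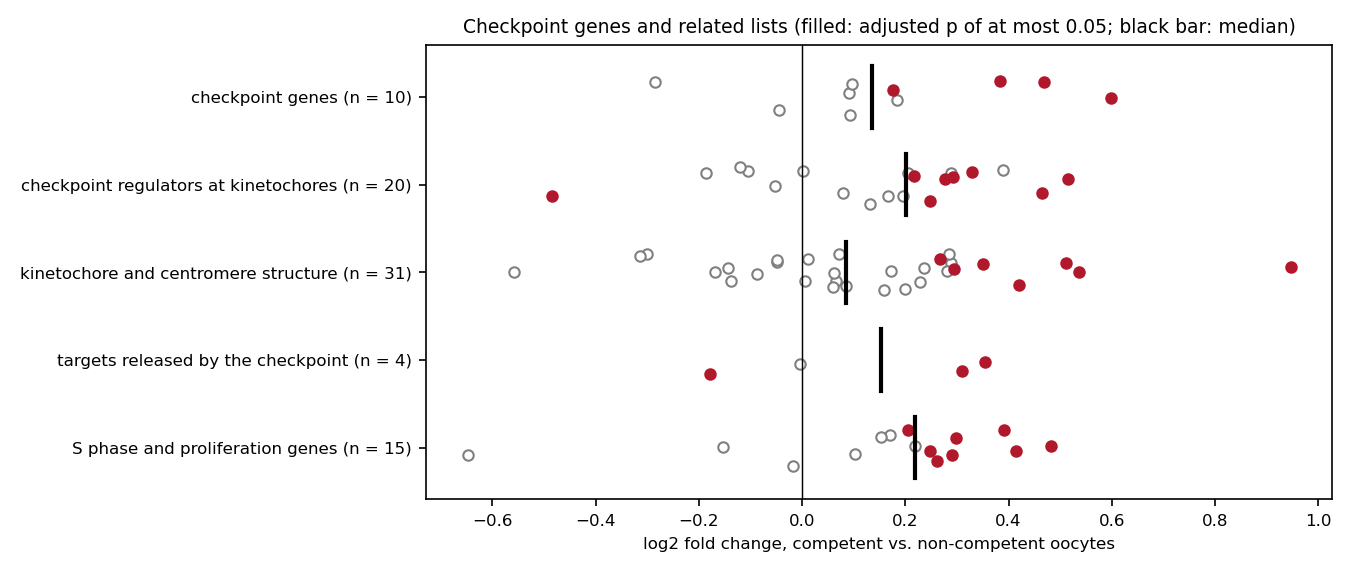
Log2 fold change in competent vs. non-competent oocytes (horizontal axis) of the 10 checkpoint genes and of 4 related lists, 1 point per gene, filled where the adjusted p was at most 0.05, with a black bar at each list's median. The medians lay between 0.09 and 0.22, and points spread to both sides of 0.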

How the data were processed

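The authors deposited raw read counts per gene and log2 values for the 12 pools. The deposited log2 values are the log2 of the count over a pool's size factor, plus 1, and were used in 1 alternative. The submitters' processing notes list FastQC, STAR, HTSeq, DESeq2 and HOMER and the mm10 build. Their versions, and the strand setting of the counting, are not given in the sources used here. Each pool's cohort came from the sample labels.

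Counts were analysed in R 4.3.3 with edgeR 4.0.16. The filterByExpr function (minimum count 10) kept 13943 of 24562 genes, and pools were scaled by TMM. A robust quasi-likelihood fit with 1 coefficient per cohort gave 6 comparisons, and a fit with 2 groups compared competent with non-competent oocytes. All adjusted p-values are Benjamini-Hochberg values over the genes tested, from edgeR's quasi-likelihood test unless another is named. SE is the absolute log2 fold change over the square root of F. The 95% intervals are ±1.96 SE, a normal approximation that is narrower than the test allows. For Mad1l1 in PND 16 small vs. PND 13 the interval of the fold was 1.01 to 1.32 with an unadjusted quasi-likelihood p of 0.0536. Pools of a cohort differed beyond sampling noise (chi-square per gene 9.72 to 54.7). Reads carried no molecular identifiers, so counts hold more error than counting alone.

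The 10 genes and the lists were chosen with earlier results of these data known. All 10 genes are named, of the other lists the called genes with the 2 largest changes in each direction in competent oocytes, and for each called checkpoint gene the 2 genes most like it, of which 1 is not reported here. Further genes of the lists were named after their values were seen. Alternatives were DESeq2 1.42.0, limma 3.58.1 on the authors' log2 values, RLE, upper quartile and total count scaling, no filter or a minimum count of 50, only the cohorts compared, a replicate block, no fold criterion and leaving out each pool. Leaving out 3 pools, and counts by adjusted p alone under each alternative, were added after seeing the data. The script was tested on simulated counts. Gene positions and lengths are from GENCODE M21.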

Additional observations from a re-analysis of the deposited data

Results flagged for a closer look

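Of 20 groups of 6 pools examined (10 genes in competent and in non-competent oocytes), 2 had a pool whose gap to its neighbour, divided by the group's range, was above Dixon's 95% critical value. Chance flags about 1 in 20 groups when the 6 values come from 1 normal distribution. Each group here holds 2 cohorts, so the 2 flags are not read against that rate. Mad1l1 measured 80.7 CPM in PND 16 large pool 1, the highest of the competent pools, against 73.2 CPM in the next (gap over range 0.642). Zwint measured 65.5 CPM in PND 16 small pool 2, the highest of the non-competent pools, against 54.9 CPM in the next (0.639), and that pool also had the highest granulosa marker sum, 712 CPM. The part of that sum in the Zwint value was not tested.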

How the results depend on the processing

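None of the 24 changes of the 10 genes that passed by adjusted p reversed direction in an alternative, and the changes that did not pass were not followed. Of the 24, 9 passed in every alternative run: Bub1b in PND 40 against each other cohort, Ttk in PND 16 large and PND 40 against PND 13, Knl1 in PND 40 vs. PND 16 small, and Bub1b, Bub3 and Ttk in competent oocytes. The other 15 missed the threshold in at least 1, and the cause was not tested. Without the 1.5-fold criterion the called counts of 0, 0, 2, 0, 1, 0 and 1 became 1, 4, 4, 2, 7, 2 and 4, in the order PND 16 small, then PND 16 large, then PND 40 against PND 13, PND 16 large and PND 40 against PND 16 small, PND 40 against PND 16 large, and competent against non-competent. With total count scaling, only the cohorts compared, or the 3 pools highest in granulosa markers left out, the count was 1 in PND 40 vs. PND 13 and 0 in competent oocytes, and limma also gave 0 there. Leaving out each pool gave ranges of 0 to 0, 0 to 1, 1 to 3, 0 to 0, 1 to 2, 0 to 0 and 0 to 1. Competent Bub1b then fell under 1.5-fold without PND 13 pool 3 and without each PND 40 pool, and Ttk in PND 40 vs. PND 13 without PND 13 pool 3.

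By adjusted p alone, PND 16 small vs. PND 13 gave 0 in place of 1 under upper quartile and total count scaling, the block, only the cohorts compared and without the 3 pools. PND 16 large vs. PND 13 gave 1 in place of 4 without the 3 pools. PND 40 vs. PND 13 gave 2 in place of 4 under total counts, only the cohorts compared and without the 3 pools. PND 16 large vs. PND 16 small gave 1 in place of 2 under the block and only the cohorts compared, and 4 by DESeq2. PND 40 vs. PND 16 small gave 4 in place of 7 with only the cohorts compared. PND 40 vs. PND 16 large gave 1 in place of 2 under RLE, upper quartile, no filter, the block, limma and without the 3 pools. Leaving out each pool gave 0 to 3, 2 to 4, 2 to 4, 0 to 2, 3 to 6, 1 to 1 and 4 to 5 in the order above.

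Same-numbered pools did not deviate together (correlations of -0.442 to 0.0753), and the main fits used no pairing. With 3 pools per cohort this check cannot exclude a shared batch. The replicate block gave the same called counts of 0, 0, 2, 0, 1, 0 and 1. With 3 pools per cohort and a spread beyond counting error, small changes were not detectable for every gene, and Itgb3bp is limited by its low counts.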
